A study of Mus musculus with 118 samples.

Results

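The 9 proneural genes Neurog1, Neurog2, Neurog3, Neurod1, Neurod2, Neurod4, Neurod6, Atoh1 and Olig2, out of 26180 genes with a curated RefSeq transcript, were examined for Polycomb binding in mouse embryonic stem cells (ESCs). They are a named list of basic helix-loop-helix (bHLH) genes. For each gene the promoter, taken as every curated transcription start site (TSS) plus or minus 2500 bp, and the gene body were compared with the peaks of RING1B, SUZ12 and PCGF2. Peaks came from calibrated ChIP-seq (cChIP-seq), where cells of another species, here human HEK293T cells, are mixed in before the immunoprecipitation as a standard. The series holds 118 samples in 42 groups, and the peaks were called in untreated E14 ESCs grown in serum and leukemia inhibitory factor. There were 3 untreated PRC1CPM samples for every one of the 3 antibodies, and a further 3 untreated PRC1CKO samples for SUZ12. The RING1B list also rests on RING1B data from PRC1CKO cells, untreated and treated with tamoxifen, that were not analysed here, because a RING1B peak was kept only if its signal fell significantly after treatment. The PRC1CPM line is clone 41, in which Ring1a carries I50A/D53K, both Ring1b alleles can be switched from wild type to I53A/D56K, and ERT2-Cre is expressed from Rosa26. The PRC1CKO line is clone B9, which is Ring1a-/- with Ring1b fl/fl and the same Rosa26::ERT2-Cre. The untreated cells of both lines therefore lacked catalytically active RING1A, carried working RING1B, and had not received 4-hydroxytamoxifen, which is given to treated cells at 800 nM for 72 hours. Each line is a single clone.

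The lists hold start and end positions only, 18643 peaks for RING1B, 7438 for SUZ12 and 3680 for PCGF2, and each merges or intersects replicates. They carry no height, no read depth and no replicate values, so a value below has no error between replicates, differences were not tested, and a site without a peak may still be bound below the calling threshold. For the same reason the depth behind a given peak is unknown. No gene expression was measured here, and the identity of the cells could be examined only through where the peaks lie.

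Proneural bHLH factors bind E-box DNA as dimers with broadly expressed E proteins and switch progenitors into a neuronal or, for NEUROG3, a pancreatic endocrine fate. Neurogenins act early, in dividing progenitors, and turn on NEUROD factors, which carry differentiation forward, while Notch signalling through HES and HEY repressors and the ID proteins hold the network back. In ESCs such lineage regulators are typically silent and lie in Polycomb chromatin domains. PRC1, whose catalytic subunit is RING1B, ubiquitylates histone H2A, PRC2, with its core subunit SUZ12, methylates histone H3 at lysine K27, and canonical PRC1, marked by PCGF2, reads that methylation. RING1B is also found at many CpG islands through variant PRC1 complexes, so the 3 factors together mark domains that hold PRC2 and canonical PRC1 as well.

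The sequences below are shown because the members differed in CpG content, both at the TSS and inside the peaks. They are 250 bases each, written 5′ to 3′ on the strand of the gene from RefSeq on GRCm38.p6 (mm10), with every CpG in capitals. All 9 members matched the RefSeq promoter table. The first 4 end at the base before the TSS, and the last 2 are the stretches with the most CpGs inside the RING1B peaks of Neurod2 and Neurod6.
Neurog1, upstream, chr13:56252181-56252430, minus strand: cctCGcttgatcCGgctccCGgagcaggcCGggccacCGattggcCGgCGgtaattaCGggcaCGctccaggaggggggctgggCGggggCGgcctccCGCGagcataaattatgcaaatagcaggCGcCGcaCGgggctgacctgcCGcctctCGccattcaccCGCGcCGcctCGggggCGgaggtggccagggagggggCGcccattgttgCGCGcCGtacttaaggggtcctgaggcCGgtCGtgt
Neurod2, upstream, chr11:98329646-98329895, minus strand: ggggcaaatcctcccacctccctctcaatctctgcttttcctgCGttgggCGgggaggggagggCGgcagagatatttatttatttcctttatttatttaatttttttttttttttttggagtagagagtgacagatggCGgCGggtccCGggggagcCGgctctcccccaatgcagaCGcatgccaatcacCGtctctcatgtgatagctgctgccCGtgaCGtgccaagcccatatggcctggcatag
Neurod4, upstream of its first TSS, chr10:130280255-130280504, minus strand: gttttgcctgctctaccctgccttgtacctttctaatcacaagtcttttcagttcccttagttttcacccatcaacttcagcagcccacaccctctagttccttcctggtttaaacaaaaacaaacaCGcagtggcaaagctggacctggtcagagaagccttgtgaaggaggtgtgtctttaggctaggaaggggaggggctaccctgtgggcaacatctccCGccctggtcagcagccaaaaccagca
Neurod6, upstream, chr6:55681264-55681513, minus strand: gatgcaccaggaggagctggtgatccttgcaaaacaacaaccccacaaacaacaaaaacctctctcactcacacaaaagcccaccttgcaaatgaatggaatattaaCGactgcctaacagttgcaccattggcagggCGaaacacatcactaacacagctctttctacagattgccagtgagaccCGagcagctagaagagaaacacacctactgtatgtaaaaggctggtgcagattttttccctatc
Neurod2, inside its RING1B peak, chr11:98338837-98339086, minus strand: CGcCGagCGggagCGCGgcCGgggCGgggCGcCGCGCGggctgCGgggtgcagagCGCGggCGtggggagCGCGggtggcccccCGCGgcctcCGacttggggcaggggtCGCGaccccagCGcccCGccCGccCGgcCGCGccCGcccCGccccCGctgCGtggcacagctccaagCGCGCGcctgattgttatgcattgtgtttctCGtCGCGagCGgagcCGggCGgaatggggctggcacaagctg
Neurod6, inside the RING1B peak at the end of the gene, chr6:55676964-55677213, minus strand: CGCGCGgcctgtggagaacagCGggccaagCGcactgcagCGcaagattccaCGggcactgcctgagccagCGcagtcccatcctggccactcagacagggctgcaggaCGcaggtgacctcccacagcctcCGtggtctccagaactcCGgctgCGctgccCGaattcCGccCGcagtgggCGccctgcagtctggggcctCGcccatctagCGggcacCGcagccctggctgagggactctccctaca
Upstream of the TSS, Neurog1 held 29 CpGs, Neurod2 11, Neurod4 2 and Neurod6 3 in the same length. The stretch inside the Neurod2 peak, which lies in no exon of Neurod2, held 41 CpGs. The stretch inside the Neurod6 peak, 4050 to 4299 bp after the TSS and so past the end of the gene, held 19.

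RING1B, SUZ12 and PCGF2 were found together at the promoters of 7 of the 9 genes, namely Neurog1, Neurog2, Neurog3, Neurod1, Neurod2, Atoh1 and Olig2, and none of the 3 was found at the promoters of Neurod4 and Neurod6. The background over all genes was 53.2% for RING1B, 24.8% for SUZ12, 13.5% for PCGF2 and 13.4% for the 3 together. At each of the 7 genes the TSS itself lay inside a peak of every list. The remaining pair had different arrangements. Neurod6 had a short RING1B and SUZ12 peak at the end of the gene, and Neurod4 had no peak of any list at its promoter or gene body. No member had RING1B alone or SUZ12 without PCGF2 at its promoter, so the members fell into complete occupancy or none.

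**Figure D1:**
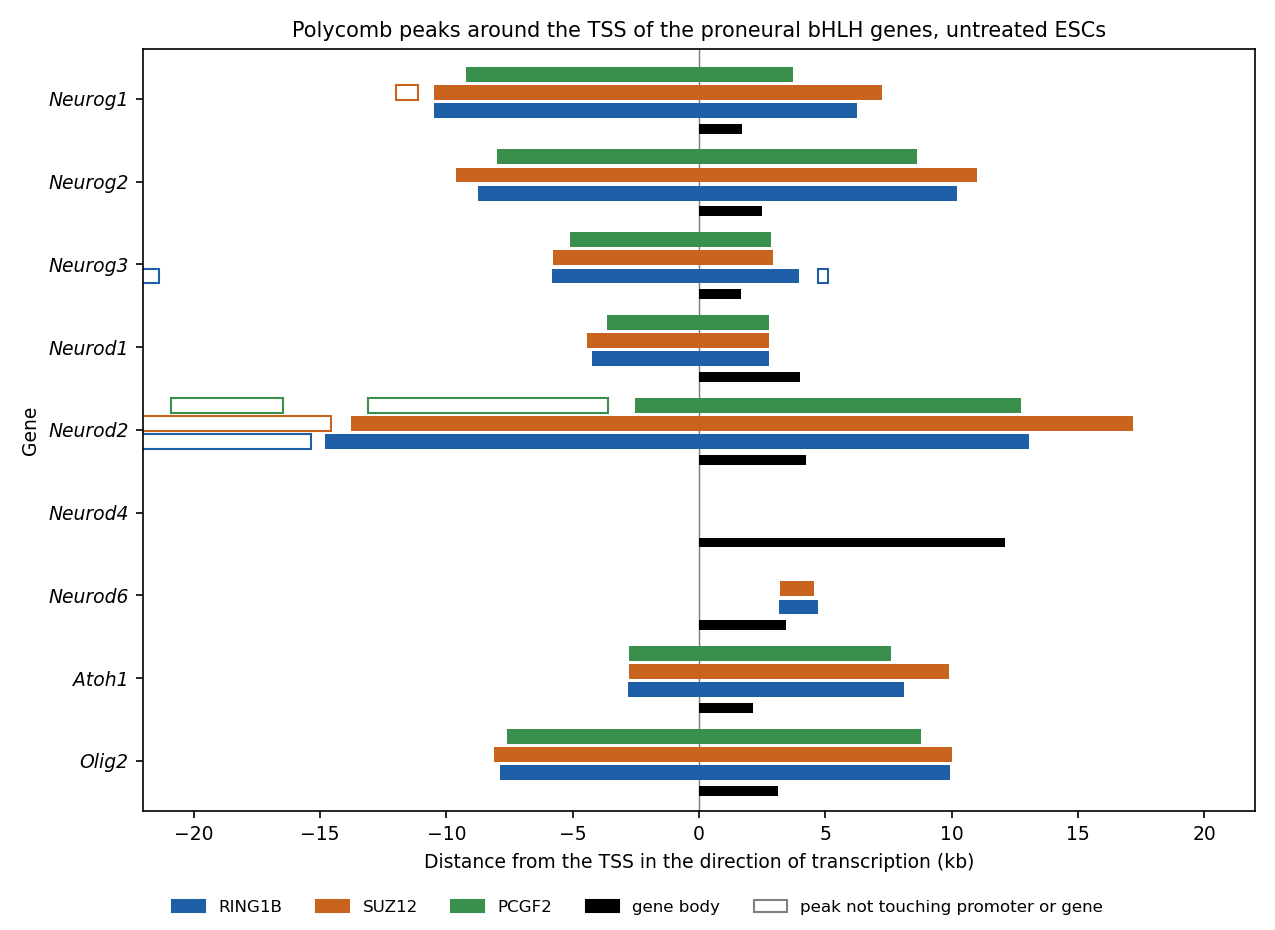
Peaks of RING1B (blue), SUZ12 (orange) and PCGF2 (green) around the TSS of each of the 9 genes, in kb along the direction of transcription, with the gene body in black and outlined bars for peaks that touch neither promoter nor gene. At 7 genes all 3 lists span the TSS with RING1B peaks of 6.98 to 27.9 kb, Neurod6 has RING1B and SUZ12 at its end only, and Neurod4 has none.

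The neurogenins, which commit progenitors, were all covered from end to end. Neurog1 (chr13:56250478-56252180, minus strand), needed for cranial and dorsal root sensory neurons, lay in a RING1B peak of 16771 bp at chr13:56245907-56262677. That peak began 10497 bp upstream of the TSS and ended 6273 bp downstream, so 62.6% of it lay upstream. The SUZ12 peak at Neurog1 was 17720 bp wide and the PCGF2 peak 12964 bp. Neurog2 (chr3:127633136-127635631, plus strand), which drives glutamatergic neurons of the cortex, had the widest peaks of the neurogenins, with 18967 bp for RING1B at chr3:127624396-127643362, 20641 bp for SUZ12 and 16605 bp for PCGF2. Its RING1B peak was nearly centred on the TSS, with 46.1% of the width upstream. Neurog3 (chr10:62133090-62134763, plus strand), the determination gene of pancreatic endocrine cells, had the narrowest, 9789 bp for RING1B at chr10:62127257-62137045, 8690 bp for SUZ12 and 7940 bp for PCGF2. The order Neurog2, Neurog1, Neurog3 therefore held in each of the 3 lists.

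Among the NEUROD genes, which promote differentiation, occupancy ranged from the widest domain of the members to none. Neurod2 (chr11:98325417-98329645, minus strand), a factor of maturing cortical neurons, had a RING1B peak of 27876 bp at chr11:98316579-98344454, reaching 14809 bp upstream and 13066 bp downstream of the TSS. Its SUZ12 peak measured 30985 bp, also the widest of the members. PCGF2 was split there into a peak of 15271 bp over the gene and another of 9513 bp that began 3592 bp upstream of the gene, and together they covered 88.9% of the RING1B peak. The upstream PCGF2 peak contains the CpG-dense sequence printed above, which lies 9192 to 9441 bp before the TSS. Neurod1 (chr2:79452637-79456636, minus strand), a factor of neurons and of beta cells, had the narrowest domain of the 7, 6983 bp for RING1B at chr2:79453873-79460855, 7184 bp for SUZ12 and 6415 bp for PCGF2. It was also the only one of the 7 whose gene body was not wholly covered. All 3 peaks stopped within the gene, 2763, 2770 and 2775 bp after the TSS for RING1B, SUZ12 and PCGF2, leaving 69.1% of the gene in the RING1B peak.

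Neurod6 (chr6:55677818-55681263, minus strand), expressed in postmitotic pyramidal neurons, had a RING1B peak of 1539 bp at chr6:55676548-55678086 and a SUZ12 peak of 1358 bp, starting 3177 and 3198 bp after the TSS. Of that RING1B peak, 269 bp lay in the last exon outside the coding sequence and 1270 bp lay past the end of the gene. It covered 7.81% of the gene body, and the TSS of no curated gene lay inside it. The nearest PCGF2 peak was 224 kb from the gene, at the promoter of Adcyap1r1. At Neurod4 (chr10:130268152-130280254, minus strand), which cooperates with other proneural factors in the retina and hindbrain, the nearest RING1B peak was 132 kb away and had no SUZ12 or PCGF2. The nearest SUZ12 peak was 190 kb from Neurod4, and the nearest PCGF2 peak 1375 kb. The RING1B list had been filtered for peaks that lose signal on tamoxifen in PRC1CKO cells. The SUZ12 and PCGF2 lists had not been filtered in this way and held no peak at either promoter. They reach fewer genes, 24.8% and 13.5% against 53.2% for RING1B. Whether the filter removed a RING1B peak at either promoter was not tested.

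Atoh1 (chr6:64729125-64731245, plus strand), required for cerebellar granule cells and inner ear hair cells, had a domain that lay mostly downstream. Its RING1B peak of 10924 bp, at chr6:64726312-64737235, began only 2813 bp before the TSS and ran to 8110 bp after it, so that 25.8% of its width was upstream, the lowest share among the 7. SUZ12 covered 12660 bp and PCGF2 10359 bp there, both with the same downstream bias. The 250 bases of this peak with the most CpGs, 25, lay 5404 to 5653 bp after the TSS, beyond the end of the gene. Olig2 (chr16:91225550-91228677, plus strand), which specifies motor neurons and then oligodendrocytes, had a RING1B peak of 17784 bp at chr16:91217691-91235474, a SUZ12 peak of 18126 bp and a PCGF2 peak of 16369 bp. SUZ12 passed RING1B there by 265 bp upstream and 77 bp downstream, and PCGF2 stopped 274 bp inside the RING1B edge upstream and 1141 bp inside it downstream.

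The 7 occupied genes had wide peaks compared with other genes. Their median width was 16771 bp for RING1B, 17720 bp for SUZ12 and 12964 bp for PCGF2. Over all genes with the factor at a promoter, the median of the widest promoter peak was 1810 bp for RING1B (13922 genes), 3232 bp for SUZ12 (6487 genes) and 2912 bp for PCGF2 (3522 genes). Genes with all 3 factors are the nearer comparison, and among those 3508 genes the medians were 4918, 5394 and 2914 bp. Neurod1, the narrowest of the 7 for RING1B, was wider than 71.6% of these genes, and Neurod2, the widest, than 96.0%. For PCGF2 the corresponding range was 83.3% at Neurod1 to 93.7% at Neurog2. All 7 were thus above the median of genes with all 3 factors in each list, while none was the widest, which reached 131360 bp for RING1B. Neighbouring genes can share a peak in these counts, and each list was called by its own rules.

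**Figure D2:**
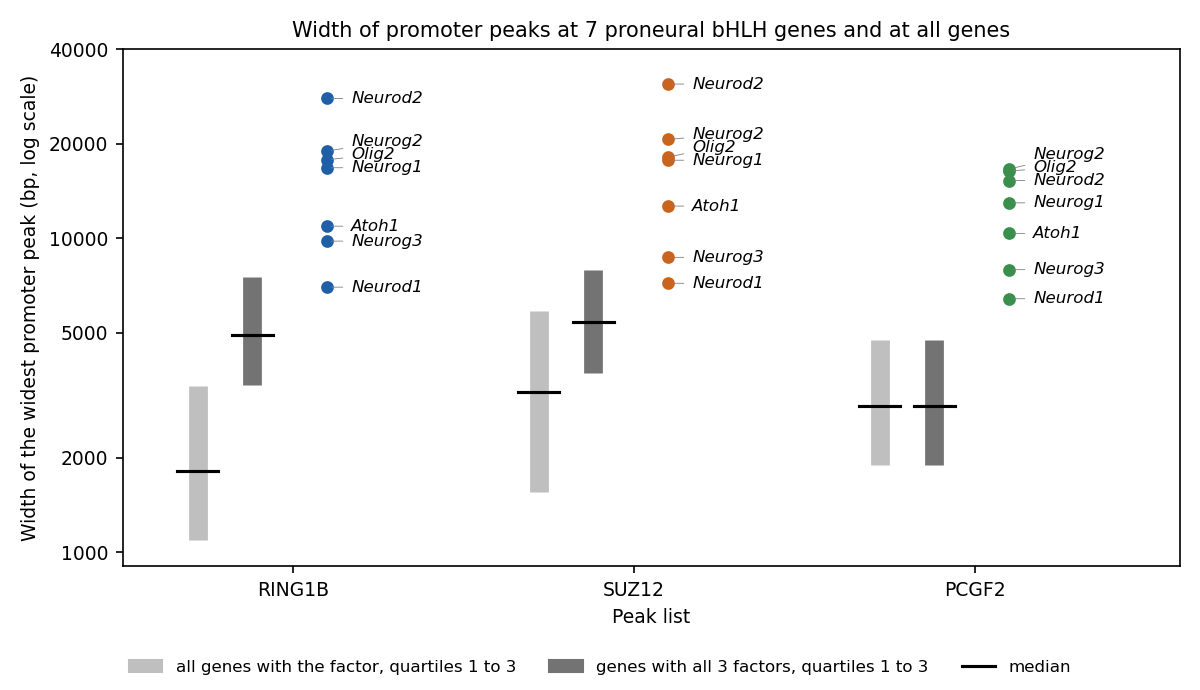
Width of the widest promoter peak in bp on a log scale, with points for the 7 occupied proneural genes and bars from the first to the third quartile, with the median as a black line, for all genes with that factor (light grey) and for the 3508 genes with all 3 (dark grey). In the RING1B list 6 of the 7 genes lie above the dark bar, and Neurod1, at 6983 bp, lies within it.

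SUZ12 peaks covered most of each RING1B peak, while the distance between their edges varied. SUZ12 covered 88.8% to 100% of the RING1B peak at the 7 genes, with a median of 99.9%, beside a median of 99.1% over 3024 promoter RING1B peaks that overlap both other lists. The SUZ12 peak was the wider of the pair at 6 of the 7 genes, the exception being Neurog3, and at 66.7% of all genes with the 3 factors. At Neurog3 it stopped 1034 bp short of RING1B downstream. The largest differences in the other direction were 4132 bp downstream of Neurod2, 1781 bp downstream of Atoh1 and 974 bp downstream of Neurog1, where SUZ12 ran on past RING1B. These edges are those of the SUZ12 peak over the TSS. Upstream, that peak stopped inside the RING1B edge by 25 bp at Neurog1, 45 bp at Atoh1, 65 bp at Neurog3 and 1023 bp at Neurod2. It passed the upstream RING1B edge by 194 bp at Neurod1, 265 bp at Olig2 and 892 bp at Neurog2. Further SUZ12 peaks lay near 2 of these edges. At Neurog1 a SUZ12 peak of 889 bp without RING1B lay 11.1 kb upstream of the gene, past the RING1B edge. At Neurod2 the next SUZ12 peak upstream shared 263 bp with the RING1B peak, so SUZ12 was present on both sides of that edge.

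PCGF2 peaks lay within the RING1B peaks. At 6 of the 7 genes the PCGF2 peak over the TSS was wholly inside the RING1B peak, and at Neurod1 it passed the RING1B edge by 12 bp. Over the whole list, 93.8% of PCGF2 peaks were wholly inside a RING1B peak, so this arrangement was general. PCGF2 filled 77.3% of the RING1B peak at Neurog1, the lowest share of the 7, and 94.8% at Atoh1, the highest, with a median of 88.9%. Over all 3024 promoter RING1B peaks with the 3 factors the median was 63.3%, and over the 709 of them at least as wide as that of Neurod1 it was 73.7%, with quartiles of 53.9% and 86.3%. At Neurog1 the uncovered part was mainly on the downstream side, where PCGF2 stopped 2538 bp inside the RING1B edge.

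CpG content around the TSS was higher at each of the 7 occupied members than at Neurod4 and Neurod6. CpG observed/expected, the number of CpGs relative to that expected from C and G content, was taken over 500 bp on each side of the TSS. It was 0.85 at Neurog2, 0.76 at Neurog1, 0.74 at Olig2, 0.70 at Neurod1, 0.65 at Atoh1, 0.51 at Neurog3, 0.45 at Neurod2, 0.23 at Neurod4 and 0.21 at Neurod6. The median was 0.539 over all genes, 0.733 over genes with all 3 factors and 0.225 over genes with no RING1B at a promoter. Neurod4 and Neurod6 were therefore near the median of genes without RING1B. Low ratios were also seen at occupied neural bHLH genes outside the members. Nhlh2, at 0.21, had all 3 factors, and Nhlh1, at 0.07, had RING1B and SUZ12. Over this window Neurog3 and Neurod2 were below the median of all genes and still lay in wide domains.

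A promoter was called CpG-rich with an observed/expected ratio of at least 0.6 and a GC content of at least 50%. Of the 5 members with a CpG-rich promoter, Neurog1, Neurog2, Neurod1, Atoh1 and Olig2, all had the 3 factors. Among all 11507 genes of this class, 88.8% had RING1B, 40.4% SUZ12, 23.1% PCGF2 and 23.0% all 3, so that RING1B at these 5 promoters was near what the class shows in general while SUZ12 and PCGF2 were more frequent. Of the 4 members without a CpG-rich promoter, Neurog3 and Neurod2 had all 3 factors. In that class of 14673 genes, 25.2% had RING1B, 12.5% SUZ12, 5.92% PCGF2 and 5.89% all 3.

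CpG-rich sequence was also measured over a wider span. Sequence was counted as CpG-island-like where a window of 200 bp had a GC content of at least 50% and an observed/expected ratio of at least 0.6. Within 20 kb of the TSS there were 8857 bp of it at Neurod2, 8540 bp at Olig2, 7423 bp at Neurog2, 4726 bp at Neurog3, 4390 bp at Neurog1, 3709 bp at Atoh1 and 3170 bp at Neurod1. Neurod6 had 888 bp and Neurod4 had 0 bp. The median was 1955 bp over all genes, 2948 bp over genes with all 3 factors and 986 bp over genes with no RING1B at a promoter. At the 7 occupied genes, 63.7% (Neurog3) to 100% (Neurod1) of this sequence lay inside RING1B peaks. Island-like sequence made up 22.7% to 45.4% of the RING1B-covered bases there, against 0% to 6.49% of the remaining bases within 20 kb. These shares count every RING1B peak in the span. At Neurod2, segments of 1522 and 436 bp lay in the separate RING1B peak further upstream, not in that of Neurod2 itself.

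The densest CpG stretches did not always lie at the TSS. At Neurog1, Neurog2, Neurog3 and Olig2 the 250 bases with the most CpGs in the RING1B peak, 35, 36, 26 and 40 CpGs, fell wholly in the coding sequence. At Neurod1 they spanned the TSS, with 24 CpGs, and at Neurod2 and Atoh1 they lay outside the gene, as given above. Neurod2 also had an island-like segment of 2287 bp running from 474 to 2760 bp after its TSS. Shorter island-like segments, of 516 bp at Neurod2 and 487 bp at Neurog3, spanned the TSS inside RING1B peaks. Neither promoter was called CpG-rich over 500 bp on each side of the TSS. Neurod6 had a segment of 262 bp in its coding sequence, 1730 to 1991 bp after the TSS, which lay in no RING1B peak, and one of 378 bp that lay inside the peak at the end of the gene. Island-like sequence outside RING1B was also present at other members, most at Neurog3, where a segment of 673 bp between 9294 and 9966 bp after the TSS had no RING1B peak.

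**Figure D3:**
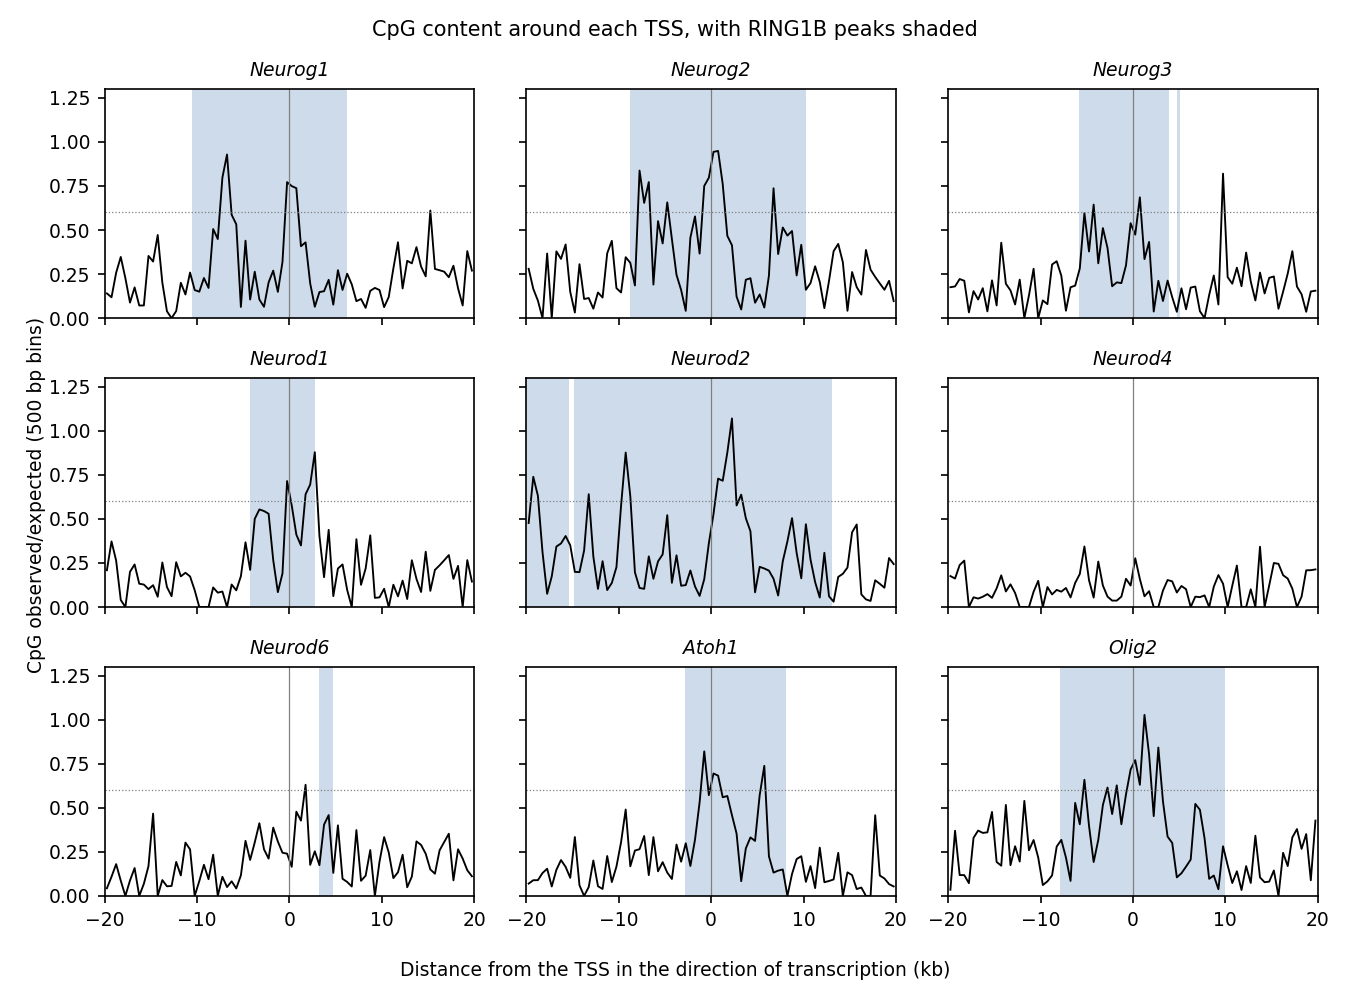
CpG observed/expected in 500 bp bins within 20 kb of the TSS of each gene, with RING1B peaks shaded blue and a dotted line at 0.6. Bins above the line lie under the shading, or across its edge, at the 7 occupied genes except for Neurog1 and Neurog3, which each also have such a bin outside it. Neurod4 has no bin above it, and at Neurod6 the bin above it lies before the shaded peak.

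E-boxes, the sites that the encoded factors and their E protein partners bind, were counted in the RefSeq promoters from 250 bases before to 50 after the start. The general E-box CANNTG, which reads the same on both strands, was present at Neurog1, Neurog3, Neurod1, Neurod2, Neurod6 and the second promoter of Neurod4, with 3 matches at Neurod2, 2 at Neurod6 and 1 at each of the others, and in 72.3% of all 32851 promoters. Of its variants, CAGCTG was found at Neurog3 and at the second Neurod4 promoter and in 16.3% of all promoters. CAGATG, searched on both strands, was found at Neurod2 and in 17.2% of all promoters. Neurog2, Atoh1 and Olig2 had no E-box in this window. Matches were thus found at occupied and unoccupied promoters alike, and they describe letters in the window rather than sites of binding.

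The peaks lay at varying distances from those of neighbouring genes. No curated TSS other than that of the member itself lay inside any of the 7 RING1B peaks. Olig2 and Olig1, a neighbouring pair of oligodendrocyte lineage genes with TSSs 44219 bp apart, had separate domains, the RING1B peak at Olig1 being 7803 bp wide and starting 38.1 kb after the end of Olig2. Upstream of Neurod2 a RING1B peak of 10923 bp with SUZ12 and PCGF2 began 15.3 kb from the gene. That RING1B peak reached the promoters of 1700003D09Rik, Stard3 and Ppp1r1b, the last a regulator of phosphatase signalling in striatal neurons. Of these promoters, only that of Ppp1r1b also had SUZ12 and PCGF2. Only 526 bp separated this upstream RING1B peak from the RING1B peak of Neurod2. The SUZ12 peak at Ppp1r1b began inside the RING1B peak of Neurod2, sharing 263 bp with it. The RING1B peak of Neurog1 reached the promoter window of 4930550C17Rik, whose TSS lay 8240 bp from that of Neurog1, without reaching its TSS. Downstream of Neurog1, 23.2 kb from the gene, a RING1B peak of 8201 bp overlapped SUZ12 and PCGF2 peaks with no curated promoter, as was the case for 17.3% of PCGF2 peaks overall. Neurog3 had a further RING1B peak of 391 bp, 3053 bp past the gene and 770 bp from the main RING1B peak, without SUZ12 or PCGF2. Atoh1 was the most isolated of the 7, with the next RING1B peak 311 kb away, and Neurog2 followed with 59.3 kb. These neighbours were named after their values had been seen.

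The other genes of the pathway were grouped by role. Of 10 other neural bHLH genes, all had RING1B and SUZ12 and 8 had all 3 factors. The median RING1B width over all 10 was 7706 bp, against 16771 bp at the occupied members, which all had the 3 factors. The widest of the 10 were Ptf1a, a pancreatic and cerebellar factor, at 13491 bp and Olig3, a dorsal spinal cord factor, at 13084 bp. Atoh7 and Nhlh1, with RING1B peaks of 2478 and 2311 bp, lacked PCGF2. The E proteins, which are the dimer partners, differed. All 3 had RING1B, but Tcf3 and Tcf4 had it alone, in peaks of 1467 and 286 bp, and only Tcf12 had all 3 factors, with 4033 bp of RING1B at 1 of its promoters.

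Genes of the Id and Hes or Hey families, which restrain the proneural network, all had RING1B and SUZ12, and the Notch genes were more mixed. All 4 Id genes, whose products sequester E proteins, had RING1B and SUZ12, and 3 had PCGF2, the widest being Id3 at 9628 bp and Id2 at 9572 bp. All 9 Hes and Hey repressors had RING1B and SUZ12 and 8 had all 3 factors, led by Hes7, the somite clock gene, at 12271 bp and Hes1, a general Notch effector, at 9522 bp. Of the 9 Notch ligands and receptors all had RING1B, 7 SUZ12 and 4 PCGF2. The ligands Dll4 and Dll1 were the widest of those with all 3 factors, at 13455 and 10698 bp, while the receptors Notch3 and Notch4 had RING1B alone.

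Regulators that act downstream of the proneural factors had the widest median of the lists. Of 16, 13 had all 3 factors, with a median RING1B width of 19642 bp, and Pou3f2 and Barhl2, neuronal homeodomain factors, reached 27797 and 26033 bp. Myt1 and Pax4 had no RING1B at a promoter, nor did St18, and Pax4 had a lone SUZ12 peak of 305 bp. Genes for structural and functional proteins of neurons were occupied less. Of 9, 7 had RING1B but 4 had SUZ12 and 2 had all 3, Rbfox3 and Elavl3, RNA-binding proteins, with RING1B peaks of 8124 and 3513 bp. Dcx, a microtubule protein of migrating neurons, and Syp, a synaptic vesicle protein, had none. Of 8 pluripotency markers, which ESCs express, 5 had RING1B and 2, Esrrb and Klf4, had all 3 factors, and Nanog and Zfp42 had no peak of any list. None of these differences between lists was tested.

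**Figure D4:**
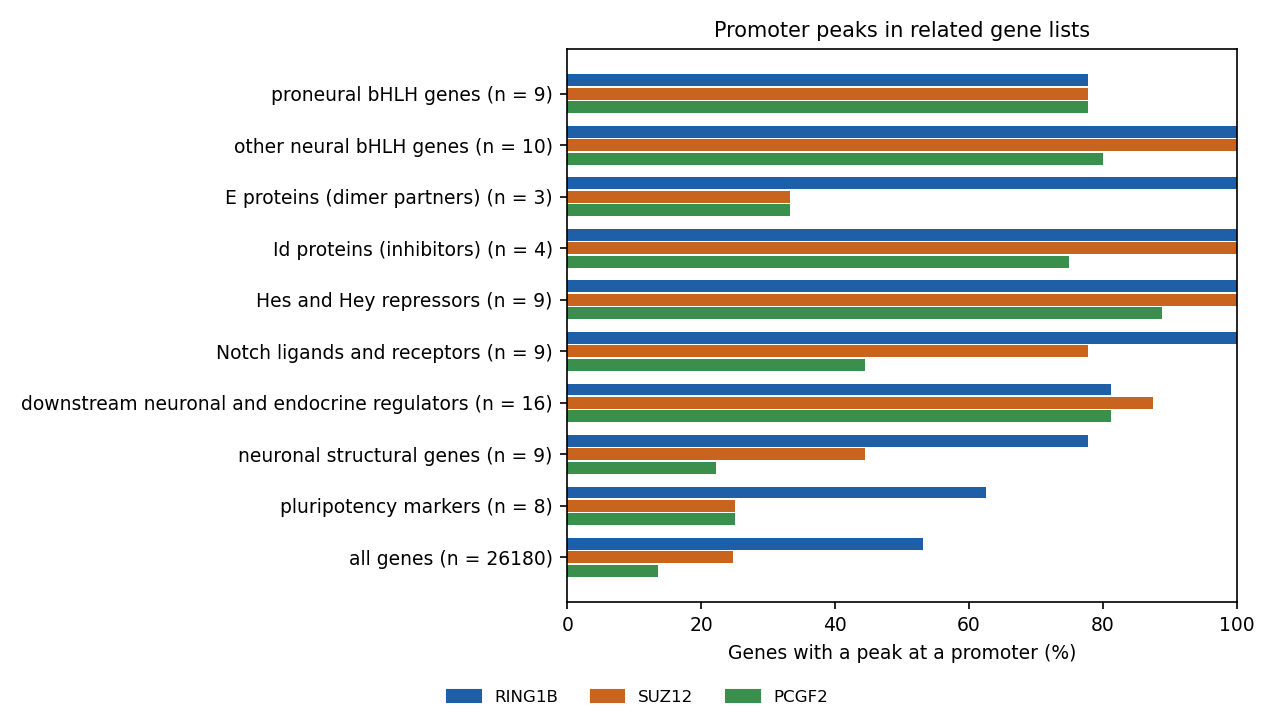
Share of genes with a RING1B, SUZ12 or PCGF2 peak at a promoter, in percent, for the 9 proneural bHLH genes, 8 related lists and all 26180 genes, with the number of genes beside each name. All genes together, the Notch genes, E proteins, neuronal structural genes and pluripotency markers have RING1B more often than SUZ12 or PCGF2. At the proneural genes the share is equal for the 3 factors.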

How the data were processed

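The values analysed were the positions of peaks from cChIP-seq in untreated ESCs. The authors aligned reads with Bowtie 2 to mm10 joined to hg19, kept unique reads without duplicates, and called broad peaks with MACS2 against Input. The deposited peak lists used here give a first and a last position in bp for every peak, with no count, signal or p-value. Signal tracks and library depths were not used. For RING1B and SUZ12, replicates were merged and peaks found in both PRC1CPM and PRC1CKO cells were kept, and RING1B peaks without a significant loss after tamoxifen in PRC1CKO cells were removed. For PCGF2, peaks found in all replicates were kept. These rules differ and can change widths, and the depth per peak is not given.

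Peaks were intersected with curated RefSeq TSSs and gene bodies of GRCm38.p6, the assembly of mm10, with at least 1 shared bp. The number of peaks past a chromosome end was 0. Positions count from base 1. The most upstream TSS was the origin of distances, the widest promoter peak gave the width, and the most CpG-rich promoter represented a gene. The overlap code was tested on simulated data. Python 3.11.15, NumPy 2.4.6, pandas 2.3.3, pysam 0.24.0 and matplotlib 3.10.9 were used.

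All 9 members were named, and in each related list the 2 widest genes with all 3 factors and the first 2 without RING1B, with others named after their values were seen. Members and lists were chosen with earlier results of these data known. A comparison of protein sequences was not made.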

Additional observations from a re-analysis of the deposited data

How the results depend on the processing

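In all, 60 of 65 alternative values lay within 1.5 times the main count or equalled the main median. The 7 members with all 3 factors were the same under each of 7 settings, which changed the promoter window, the transcripts or the smallest peak counted. Their narrowest promoter peak was 6415 bp and each TSS lay inside the peaks, so these settings could hardly remove a member. With 5000 bp on each side of the TSS or the gene body, RING1B and SUZ12 counts rose from 7 to 8 through Neurod6. Summing all peaks at the promoter or gene, which adds Neurod6, moved the median width to 13848 bp for RING1B and 15190 bp for SUZ12, and joining peaks within 3000 bp moved that of SUZ12 to 18126 bp. The median CpG observed/expected of member promoters, 0.65, was 0.69 over 250 bp and 0.49 over 2500 bp on each side of the TSS. No paired analysis was possible because every list merges or intersects its replicates, so no replicate could be left out either. The lists give no peak height or depth, so weak binding at Neurod4 and Neurod6 cannot be assessed.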
